A study of Homo sapiens with 8 samples.

Results

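The RNAs of the human mitochondrial genome were followed in auxin-resistant and parental leukemia cells. All rows of the deposited expression table with a gene symbol starting with MT- were taken, which gave 37 genes of the 60754 genes and spike-in sequences listed. They were 13 protein-coding genes, 2 rRNA genes and 22 tRNA genes. The 13 mRNAs and 2 rRNAs reached a TPM (a level per transcript length, summing to the same total in every library) of 1 in at least 1 library and entered the tests with 15614 genes in all, whereas the 22 tRNA genes were listed at 0 in all 8 libraries. The study asked how cells escape auxin-inducible degradation of CTCF, the architectural protein of chromatin. It used SEM, an established B-cell acute lymphoblastic leukemia line with a KMT2A rearrangement, in which both copies of CTCF carry a miniAID-mClover3 tag and a lentiviral cassette expresses the adaptor OsTIR1(F74G) together with Zeocin resistance. C17.2 and C3.2 are each 1 knock-in clone, and each gave 2 parental and 2 resistant libraries. Untreated cells are called parental, and cells called resistant had grown with 1 μM 5-Ph-IAA, the auxin analog, and 100 μg/ml Zeocin until day 36 and were then taken off the drugs. By the study's description, resistant cells of C17.2 carry a truncated CTCF and those of C3.2 an altered tag; the alleles were not analysed here. Parental and resistant cells of a clone come from the same tagged knock-in and share the cassette. They differ in both drugs, in the time in culture and, by the study's description, in the altered CTCF or tag. Nothing in the labels says that the libraries of a group came from separate cultures, so p-values measure the spread between these libraries, which may be technical.

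The mitochondrial genome is a small circle of DNA that encodes subunits of complexes I, III, IV and V of oxidative phosphorylation, together with the rRNAs and tRNAs that translate them inside the organelle. Both strands are transcribed by the polymerase POLRMT into long polycistronic RNAs, which are cut, mostly at the tRNAs, into separate transcripts whose levels then depend on stability. The other subunits of these complexes, and the enzymes that copy, transcribe, cut and translate mitochondrial RNA, are encoded in the nucleus and imported.

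On GRCh38, by the Gencode release 44 annotation, 12 of the 13 mRNA genes lie on the forward strand of the mitochondrial chromosome and MT-ND6 lies on the reverse strand. The mRNA genes are 207 to 1812 nt long with a GC content of 39.6% to 47.7%, and the tRNA genes are 59 to 75 nt long. Both of the mRNA pairs below are carried on a shared RNA with overlapping reading frames, so reads within the overlap could come from either gene of a pair. They are shown because the genes called in the tests, MT-ATP8 and MT-ND4L, are the first genes of these pairs. Capitals mark the bases that both annotated genes of a pair hold, 46 for the first pair (chrM:8507-8592) and 7 for the second (chrM:10740-10786).

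MT-ATP8/MT-ATP6: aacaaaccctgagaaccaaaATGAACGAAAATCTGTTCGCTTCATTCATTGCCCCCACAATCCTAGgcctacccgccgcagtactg

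MT-ND4L/MT-ND4: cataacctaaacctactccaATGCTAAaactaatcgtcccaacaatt

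The nuclear genome holds old copies of mitochondrial DNA. A stretch of chromosome 1 contains copies of 7 of the mRNA genes, MTND1P23 to MTCO3P12, with identities of 96.5% to 98.6%. The following stretches are shown because the copies of MT-ND2 and MT-ATP6 took a measurable part of the TPM. They come from MT-ND2 (chrM:4691-4810) and its copy (chr1:629861-629980), and from the start of MT-ATP6 (chrM:8527-8646) and its copy (chr1:633696-633815), all on the forward strand, with capitals at the bases that differ within a pair.

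MT-ND2: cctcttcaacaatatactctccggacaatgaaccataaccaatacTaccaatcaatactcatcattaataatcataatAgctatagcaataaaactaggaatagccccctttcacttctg

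MTND2P28: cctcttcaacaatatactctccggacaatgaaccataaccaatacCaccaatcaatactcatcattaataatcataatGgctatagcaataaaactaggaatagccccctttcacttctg

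MT-ATP6: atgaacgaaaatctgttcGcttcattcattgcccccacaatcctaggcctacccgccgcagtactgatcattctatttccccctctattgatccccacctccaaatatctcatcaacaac

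MTATP6P1: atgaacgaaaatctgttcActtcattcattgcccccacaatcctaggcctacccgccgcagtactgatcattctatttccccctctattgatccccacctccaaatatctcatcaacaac

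MTND2P28 differed from MT-ND2 at 17 positions over the gene and took 11% to 19.8% of the TPM of the pair. MTATP6P1 differed from MT-ATP6 at 10 positions and took 10.3% to 14.9%. The copy of MT-ATP8, MTATP8P1, was listed at 0 in all libraries, and MTCO1P12 took 0.222% to 0.337% of its pair. The levels of MT-ND2 and MT-ATP6 are therefore uncertain by the reads that RSEM divided between near-identical copies. The TPM of MTATP6P1 was 219 and 228 in parental and 315 and 307 in resistant cells of C17.2, and 229, 202, 203 and 122 in C3.2 in the same order, and so was higher in resistant cells of C17.2 as MT-ATP6 was. Adding the copies to their mitochondrial genes, an alternative chosen after seeing the data, left the number of calls at 2 in C17.2 and 0 in C3.2. All 407 entries named as nuclear pseudogenes of mitochondrial genes together summed to 1.43% to 2.40% of the mitochondrial mRNA TPM.

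The libraries hold TPM, which keep no depth, so counting error is unknown. Protein-coding genes took 36.0% to 43.3% and small nuclear RNAs 31.2% to 37.6% of all TPM, and levels are therefore given both as deposited and as a share of protein-coding TPM. For the tests, levels were brought to a common scale by a trimmed mean, with library factors of 0.893 to 1.16. Of 10 B-lymphoblast markers, 8 reached 1 TPM in all libraries, with sums of 835 to 887 TPM in parental and 779 to 783 TPM in resistant cells of C17.2, and 821 to 874 and 703 to 739 TPM in C3.2. Of 7 T and NK cell markers, TRAC and NKG7 did so while CD3D and CD8A were at 0, and the list summed to 51.6 to 58.8 TPM. Of 10 myeloid and erythroid markers 0 did so, with sums of 0.770 to 5.18 TPM. The part of other cells in the results was not tested. The labels name no batch. The numbers that open the sample titles form separate runs for C17.2 and C3.2. What they mark is not stated, and any effect of it cannot be told apart from clone. In bulk RNA, fewer cells with a transcript and less of it per cell cannot be told apart either.

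Mitochondrial mRNAs took a larger share of the RNA in resistant cells of C17.2 than in its parental cells, and C3.2 showed no such separation. Summed over the 13 mRNAs, TPM as deposited were 21772 and 20662 in parental and 26744 and 27920 in resistant cells of C17.2, a ratio of means of 1.29. In C3.2 they were 19326 and 19193 in parental and 20855 and 17274 in resistant cells, a ratio of 0.990. As a percentage of protein-coding TPM, the sum was 5.22% and 5.26% in parental and 6.35% and 6.45% in resistant cells of C17.2, or 5.24% ± 0.0291 against 6.40% ± 0.0655 (SD, n = 2), a ratio of 1.22. Both resistant libraries lay above both parental libraries, and the exact permutation test gave p = 0.333, two-sided, which is the lowest p a comparison of 2 with 2 can reach. In C3.2 the percentage was 5.16% and 4.95% in parental and 5.45% and 4.79% in resistant cells, where the groups overlapped (ratio 1.01, exact permutation p = 1.00, two-sided, n = 2).

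**Figure D1:**
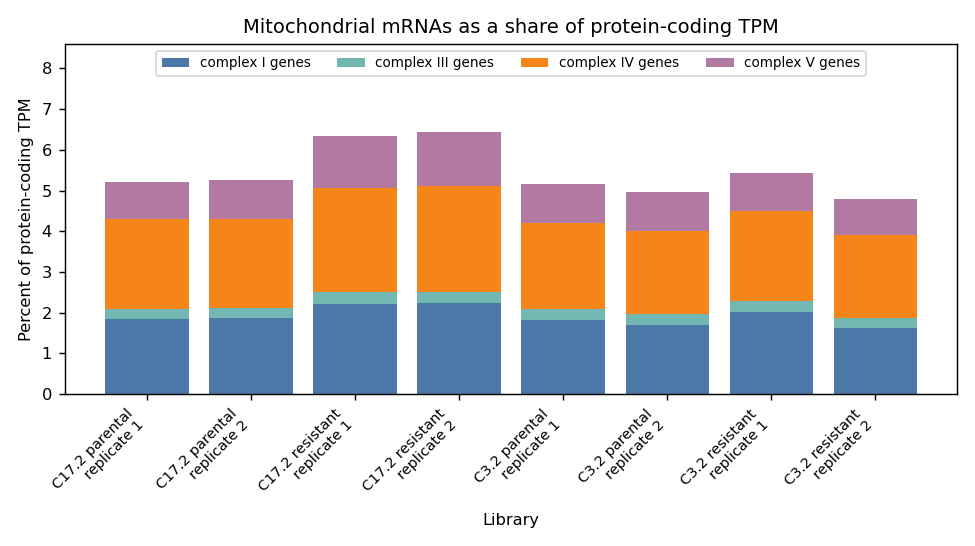
Mitochondrial mRNAs as a percentage of protein-coding TPM in each of the 8 libraries, with the bar divided by the complex that the genes belong to. The bars of C17.2 resistant cells reach 6.35% and 6.45%, above the 5.22% and 5.26% of its parental cells, whereas in C3.2 the bars of resistant cells, 5.45% and 4.79%, lie on either side of those of parental cells.

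The genes of complex V, the ATP synthase, showed the largest difference of the 4 complexes in C17.2. Their summed TPM were 3869 and 3730 in parental and 5369 and 5765 in resistant cells of C17.2, a ratio of 1.47, compared with 1.27 for complex I, 1.24 for complex IV and 1.22 for complex III. In C3.2 the ratios were 0.929 for complex V, 1.01 for complex I, 1.00 for complex IV and 0.942 for complex III, each with groups that overlapped. MT-ATP8 encodes a small membrane subunit of the ATP synthase. Its TPM were 2521 and 2423 in parental and 3512 and 3892 in resistant cells of C17.2, and 2120, 2249, 2219 and 2083 in C3.2 in the same order. The groups lay well apart in C17.2 and overlapped in C3.2. MT-ATP6 encodes the subunit that forms the proton path beside the rotating ring. Its TPM were 1348 and 1307 in parental and 1857 and 1873 in resistant cells of C17.2, without overlap. In C3.2 they were 1524 and 1440 in parental and 1441 and 1071 in resistant cells, so that the groups just overlapped. MT-ATP8 rose in C17.2 by 0.42 on the log2 scale (SE 0.058, adjusted p = 0.00341, limma with Benjamini-Hochberg adjustment, as for every adjusted p below). That call held in each of the 8 fits that left out 1 library and was lost under quantile normalization (adjusted p = 0.0808). MT-ATP6 did not pass the threshold (log2 fold change 0.33, SE 0.11, adjusted p = 0.0805).

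The mRNAs of complex I, the NADH dehydrogenase, comprised 7 genes, all of them membrane subunits. MT-ND4L was listed at 1917 and 1817 TPM in parental and 2550 and 2620 TPM in resistant cells of C17.2, and at 1823, 1760, 2041 and 1725 TPM in C3.2 in the same order. It rose in C17.2 by 0.31 on the log2 scale (SE 0.071, adjusted p = 0.0216), a call that held in 4 of the 8 fits that left out 1 library and was lost without a filter on low values (adjusted p = 0.0684). MT-ND4, on the same RNA, was at 1332 and 1260 TPM in parental and 1740 and 1778 TPM in resistant cells of C17.2 (log2 fold change 0.28, adjusted p = 0.115). The ratio of MT-ND4L to MT-ND4 was nearly the same in all 4 libraries of C17.2, from 1.44 to 1.47, and was 1.67, 1.65, 1.62 and 1.85 in C3.2. MT-ND6, the mRNA of the reverse strand, had the lowest TPM of the 13 mRNAs in all 8 libraries, with 333 and 330 in parental and 483 and 528 in resistant cells of C17.2. In C3.2 it was at 429 and 372 TPM in parental and 389 and 256 TPM in resistant cells. The C17.2 groups did not overlap and those of C3.2 did; the log2 fold changes were 0.45 (adjusted p = 0.105) and -0.41 (adjusted p = 0.188). MT-ND5, the neighbor of MT-ND6 on the other strand, was at 592 and 577 TPM in parental and 734 and 748 TPM in resistant cells of C17.2. MT-ND1, MT-ND2 and MT-ND3 differed less in C17.2, with log2 fold changes of -0.031, 0.10 and 0.066 and adjusted p of 0.888, 0.536 and 0.610. MT-ND1 was at 1484 and 1407 TPM in parental and 1557 and 1607 TPM in resistant cells. As deposited it was thus higher in resistant cells, and after scaling its log2 fold change was below 0.

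Complex IV, cytochrome c oxidase, has its catalytic core encoded by MT-CO1, MT-CO2 and MT-CO3. MT-CO1 was the most abundant mRNA per length in all 8 libraries, with 3802 and 3605 TPM in parental and 4180 and 4390 TPM in resistant cells of C17.2 and 3113, 3243, 3373 and 3328 TPM in C3.2. It was the only one of the 13 mRNAs whose resistant libraries lay above both parental libraries in both clones as deposited, by little in C3.2, and its log2 fold changes after scaling were 0.049 and 0.0099 (adjusted p = 0.553 and 0.937). MT-CO2 was at 2462 and 2277 TPM in parental and 3118 and 3215 TPM in resistant cells of C17.2 (log2 fold change 0.26, adjusted p = 0.146). MT-CO3 was at 2950 and 2781 TPM in parental and 3533 and 3678 TPM in resistant cells (log2 fold change 0.17, adjusted p = 0.125). Within the complex, the ratio of MT-CO2 to MT-CO1 was 0.648 and 0.632 in parental and 0.746 and 0.732 in resistant cells of C17.2. That ratio overlapped between the groups of C3.2, at 0.632 and 0.571 against 0.631 and 0.478. MT-CYB, cytochrome b and the one mitochondrial gene of complex III, was at 983 and 955 TPM in parental and 1172 and 1192 TPM in resistant cells of C17.2, and at 1004, 992, 1034 and 846 TPM in C3.2. Its groups overlapped in C3.2 (log2 fold change 0.12, adjusted p = 0.280 in C17.2, and -0.16, adjusted p = 0.234 in C3.2).

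**Figure D2:**
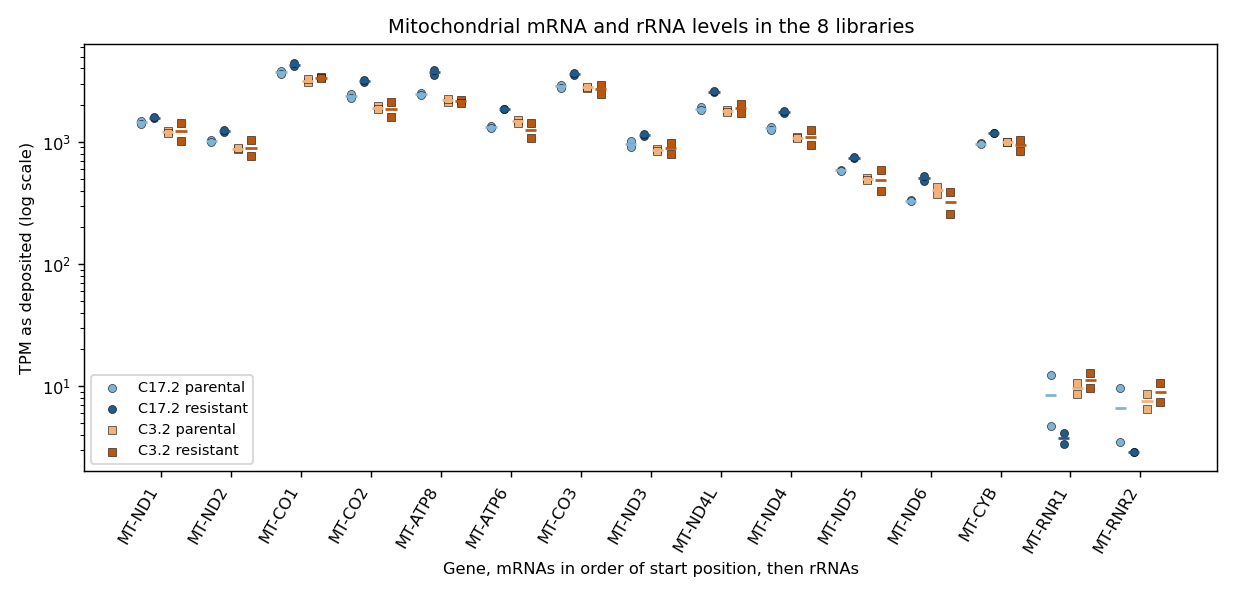
TPM as deposited of the 13 mRNAs and 2 rRNAs in each of the 8 libraries on a log axis, with a point for each library and a line at the mean of each group. For the 13 mRNAs both resistant libraries of C17.2 lie above both of its parental libraries, the mRNAs range from MT-CO1 down to MT-ND6, and the rRNAs lie far below them.

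Across the 15 genes tested, 2 were called in C17.2, MT-ATP8 and MT-ND4L, both higher. That share was below the background, where 27.3% of all genes tested were called, 13.4% higher and 13.9% lower. MT-ATP8 and MT-ND4L are also the shortest of the 13 mRNA genes, at 207 and 297 nt. An effect of gene length on their TPM, or on the complex V sum that holds MT-ATP8, was not tested. The median log2 fold change of the 13 mRNAs was 0.18, beside 0.00 over all genes tested. Of the 13 values, 12 were above 0, with MT-ND1 the exception. The mRNAs are cut from long shared RNAs and measured against the same library total, so the 13 are not independent of each other. In the TPM as deposited, the 13 mRNAs each had both resistant libraries above both parental libraries (background 49.2%), with a median of 0.34 beside 0.13 over all genes. There 6 genes were called, MT-ATP8, MT-ATP6, MT-CO3, MT-ND4L, MT-ND4 and MT-ND6, against a background of 32.8%. As shares of protein-coding TPM the 13 again did not overlap (background 42.8%), with a median of 0.27 beside 0.069, and 5 genes were called, the same genes without MT-ND6 (background 31.1%). A fit to the 4 C17.2 libraries alone called 8 genes, all higher (background 25.6%): MT-CO2, MT-ATP8, MT-ATP6, MT-CO3, MT-ND4L, MT-ND4, MT-ND5 and MT-ND6. The estimates were alike in both fits, as for MT-ATP6 at 0.33 in each, but the standard error of MT-ATP6 was 0.11 with all 8 libraries and 0.040 with C17.2 alone. Leaving out either resistant library of C3.2 likewise gave more calls in C17.2, whereas leaving out parental replicate 2 or either resistant library of C17.2 gave fewer. Calls over all genes moved the same way in each of these fits, which leave 1 library in a group. The fit without parental replicate 1 of C17.2 is described below with the rRNAs.

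The spread of the mitochondrial mRNAs between replicates was largest in the resistant cells of C3.2. Between these 2 libraries, 12 of the 13 mRNAs were lower in replicate 2 after scaling, by a median log2 difference of -0.34, with MT-CO1 excepted. The median absolute log2 difference between these libraries was 0.10 over 12301 genes. In the other groups the median absolute difference of the 13 mRNAs between replicates was 0.031, 0.015 and 0.091. In C3.2, 0 of the 15 genes were called by limma with all 8 libraries, beside a background of 11.4% of all genes, with 4.46% higher and 6.90% lower, and 1 gene, MT-ATP6, had an unadjusted p under 0.05. Its log2 fold change was -0.32 with a 95% confidence interval of -0.60 to -0.043 (adjusted p = 0.133). On the trimmed-mean scale 11 of the 13 values were below 0, with a median of -0.089. The side of 0 depended on the scaling, since 7 were below 0 as deposited and 6 as shares of protein-coding TPM. Beside the median of all genes, that of the mRNAs was lower on these scales. It was -0.089 beside 0.00 on the trimmed-mean scale, -0.022 beside 0.053 as deposited and 0.015 beside 0.085 as shares. Under quantile normalization it was higher, at 0.080 beside 0.032. Neither the TPM as deposited nor the shares gave a call, with backgrounds of 7.94% and 15.6%. The libraries of C3.2 fitted alone gave none either (background 2.66%). The 1 mRNA without overlap upward in this clone was MT-CO1, both as deposited (background 36.6%) and as a share of protein-coding TPM (background 43.3%). Without replicate 1 of the resistant cells of C3.2, 8 of the 15 genes were called in that clone, all lower (background 7.75%), and without replicate 2, 0 were.

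**Figure D3:**
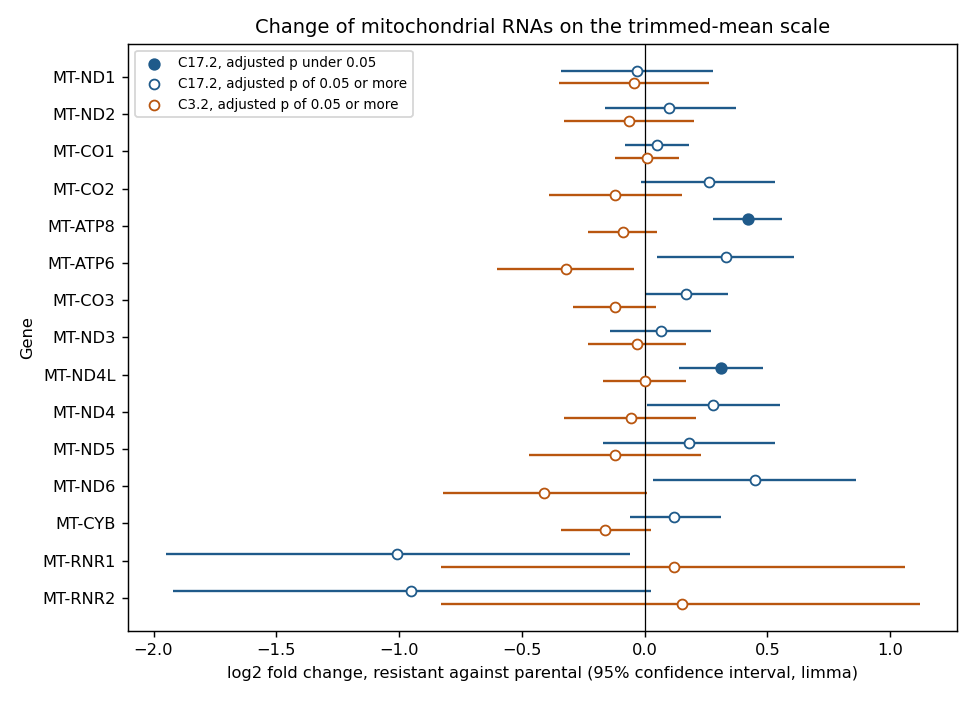
Log2 fold change of resistant against parental cells for the 13 mRNAs and 2 rRNAs, with 95% confidence intervals from limma on the trimmed-mean scale, C17.2 in blue and C3.2 in orange. Filled points mark an adjusted p under 0.05, which in C17.2 MT-ATP8 (0.42) and MT-ND4L (0.31) reached and in C3.2 no gene reached; the intervals of the rRNAs are the widest.

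With all 8 libraries, the change differed between the clones beyond the threshold for 1 of the 15 genes, MT-ATP8, where the difference of the log2 fold changes (C17.2 minus C3.2) was 0.51 with a standard error of 0.082 (adjusted p = 0.0163), beside 9.90% of all genes called. For MT-ATP6 the difference was 0.65 (adjusted p = 0.0575) and for MT-ND6 0.85 (adjusted p = 0.0799). All 13 mRNAs had a difference above 0 on this scale, with a median of 0.30 beside 0.0022 over all genes, and 6 had an unadjusted p under 0.05. As shares of protein-coding TPM the difference for MT-ND1 was -0.0060. The call of MT-ATP8 was lost without any 1 of the 4 parental libraries (adjusted p of 0.0670 to 0.0831), without a filter on low values (0.0799) and under quantile normalization (0.431). Without replicate 1 of the resistant cells of C3.2, 10 mitochondrial genes were called for this difference, all above 0 (background 6.25%), and without replicate 2, MT-ATP8 and MT-ATP6 were.

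The shares of each mRNA in the summed TPM of the 13 do not depend on the scaling between libraries. In C17.2 the composition moved toward the complex V genes and 4 others: resistant libraries lay above parental ones for MT-ATP8, MT-ATP6, MT-CO2, MT-ND4L, MT-ND4 and MT-ND6, and below for MT-ND1, MT-ND2, MT-CO1, MT-CO3, MT-ND3 and MT-CYB. The groups of MT-ND5 overlapped. Of all genes tested, 70.2% did not overlap, in either direction, when divided by the same sum, so a count of 12 of 13 is read against that. Complex V made up 17.8% and 18.1% of the mitochondrial mRNA TPM in parental and 20.1% and 20.6% in resistant cells of C17.2. In C3.2 the difference ran the other way, with 18.9% and 19.2% in parental and 17.5% and 18.3% in resistant cells. MT-ND1 had one of the largest differences, with 6.82% and 6.81% in parental and 5.82% and 5.75% in resistant cells of C17.2, and overlapping values of 6.30%, 6.11%, 6.90% and 5.93% in C3.2. In C3.2 the shares of MT-ND3 and MT-ND4L were higher and those of MT-ATP6, MT-CO3, MT-ND6 and MT-CYB lower in resistant cells, and 7 overlapped. Of all genes tested, 48.7% did not overlap in C3.2, in either direction, when divided by the same sum. The genes without overlap in this clone are read against that. MT-ND4L was thus higher in share, and MT-CO3 and MT-CYB lower, in both clones. MT-ATP6 and MT-ND6 moved in opposite directions: MT-ND6 made up 1.53% and 1.60% in parental and 1.80% and 1.89% in resistant cells of C17.2, and 2.22% and 1.94% against 1.87% and 1.48% in C3.2. The ratio of MT-ND6 to its opposite-strand neighbor MT-ND5 was 0.562 and 0.572 in parental and 0.658 and 0.705 in resistant cells of C17.2. In C3.2 it was 0.843 and 0.758 against 0.667 and 0.647. The setting for strand in the counting is not given in the sources used here, so antisense reads in MT-ND6 cannot be told apart from its own. The ratio of MT-ATP8 to MT-ATP6, which share an RNA, was 1.87, 1.85, 1.89 and 2.08 in C17.2 and 1.39, 1.56, 1.54 and 1.94 in C3.2, and was highest in replicate 2 of the resistant cells of each clone.

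**Figure D4:**
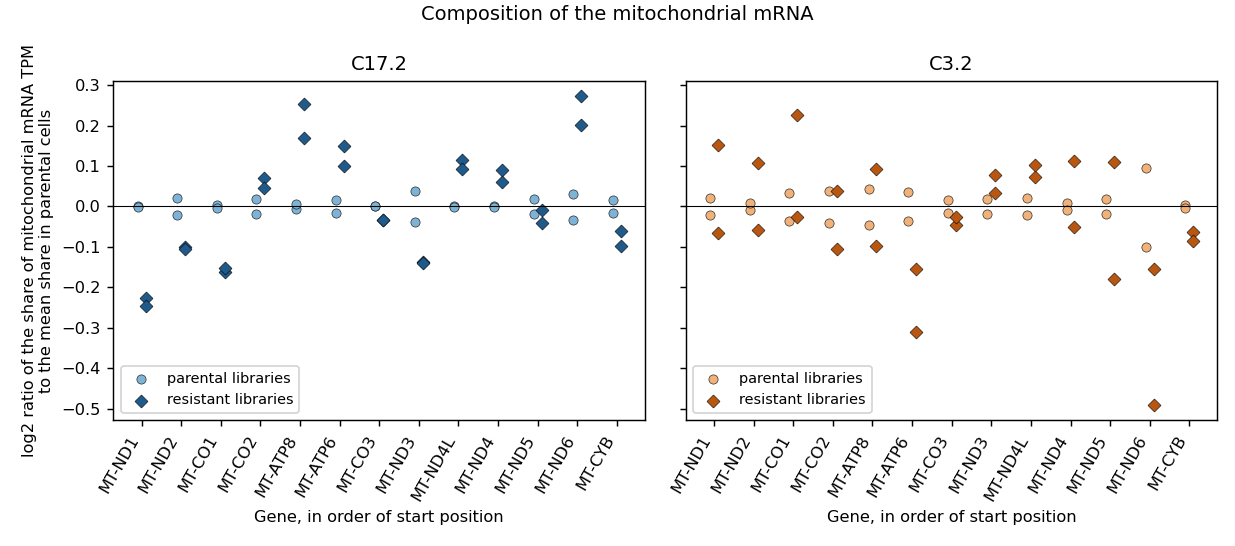
Log2 ratio of each mRNA's share of the mitochondrial mRNA TPM to its mean share in the parental cells of the same clone, with circles for parental and diamonds for resistant libraries. In C17.2 the resistant libraries lie together, above 0 for MT-ATP8, MT-ATP6 and MT-ND6 and below 0 for MT-ND1 and MT-CO1, while in C3.2 the resistant libraries lie apart from each other for most genes.

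The rRNAs of the small and large mitochondrial ribosomal subunits, MT-RNR1 and MT-RNR2, were low in every library. The RNA had been depleted of rRNA before sequencing. MT-RNR1 was at 4.71 and 12.3 TPM in parental and 4.12 and 3.36 TPM in resistant cells of C17.2, and at 10.7, 8.72, 12.8 and 9.59 TPM in C3.2. MT-RNR2 was at 3.51 and 9.69 TPM in parental and 2.92 and 2.90 TPM in resistant cells of C17.2, and at 8.69, 6.56, 10.6 and 7.42 TPM in C3.2. Replicate 2 of the C17.2 parental cells was high for both, and both rRNAs moved together, with a ratio of MT-RNR1 to MT-RNR2 of 1.16 to 1.41 over all libraries. The log2 fold changes in C17.2 were -1.01 (adjusted p = 0.108) and -0.95 (adjusted p = 0.136). Without replicate 1 of the C17.2 parental cells, MT-RNR1 was at -1.65 (adjusted p = 0.0120) and MT-RNR2 at -1.60 (adjusted p = 0.0160), and without replicate 2 at -0.36 (adjusted p = 0.313) and -0.29 (adjusted p = 0.448). The efficiency of depletion was not measured, so these values describe rRNA left after depletion. The 22 tRNA genes, listed at 0 throughout, are shorter than the reads of 100 bp that the labels give. Their listing at 0 says nothing of the level of mitochondrial tRNA in the cells.

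Many nuclear-encoded subunits of the same complexes were higher in resistant cells of C17.2. Of 74 tested, 39 rose and 1 fell in C17.2 (background 13.4% and 13.9%), with a median log2 fold change of 0.30 beside 0.18 for the 13 mitochondrial mRNAs. The 40 calls became fewer without either parental library or without resistant replicate 2 of C17.2. Calls over all genes also became fewer in each of those fits, which leave 1 library in a group. By complex, 18 of 37 rose for complex I, 6 of 9 for complex III, 6 of 11 for complex IV and 9 of 17 for complex V. The summed TPM of these subunits as deposited was lowest in parental cells of C17.2 for each complex. For complex I the mean was 1424 there and 1939 in resistant cells of C17.2. It was 1781 in parental and 1867 in resistant cells of C3.2. NDUFB2, an accessory subunit of complex I, was at 25.0 and 24.2 TPM in parental and 49.0 and 50.9 TPM in resistant cells and rose by 0.83 (SE 0.088, adjusted p = 0.00125). In C3.2 NDUFB2 was at 48.8 and 50.8 TPM in parental and 56.4 and 65.4 TPM in resistant cells. NDUFC1, another accessory subunit, was at 6.29 and 5.18 TPM in parental and 11.9 and 11.8 TPM in resistant cells of C17.2 and rose by 0.79 (SE 0.091, adjusted p = 0.00172). In C3.2 NDUFC1 was at 9.63 and 9.92 TPM in parental and 13.4 and 10.8 TPM in resistant cells. The subunit that fell in C17.2 was NDUFA10, at 33.7 and 29.1 TPM in parental and 28.5 and 25.5 TPM in resistant cells (log2 fold change -0.36, SE 0.086, adjusted p = 0.0244). The call of NDUFA10 was lost in the TPM as deposited (adjusted p = 0.186), over nuclear protein-coding genes (0.0577), without a filter (0.0635) and without parental replicate 1 (0.134), parental replicate 2 (0.0638) or resistant replicate 2 (0.115) of C17.2. In C3.2, 0 of the 74 rose and 1 fell (background 4.46% and 6.90%), with a median of -0.041. As shares of protein-coding TPM, 7 were higher and 1 lower, both below the background (10.9% and 4.64%), and 0 were called as deposited. The side of 0 of the median depended on the scaling, but it was below the median of all genes on each of these scales. It was -0.041 beside 0.00 on the trimmed-mean scale, 0.025 beside 0.053 as deposited and 0.062 beside 0.085 as shares. The one that fell, NDUFA6, was at 25.1 and 25.95 TPM in parental and 22.4 and 18.4 TPM in resistant cells (log2 fold change -0.38, SE 0.073, adjusted p = 0.0252). Its call was lost in the TPM as deposited (adjusted p = 0.113), with C3.2 alone (0.0959) and without any 1 library other than resistant replicate 1 of either clone (0.0509 to 0.127). More of the subunits were called in C3.2 without its resistant replicate 1, a fit that leaves 1 library in that group. The difference between the clones was past the threshold for 19 of the 74, all above 0, beside 9.90% of all genes.

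Relative to these subunits, complex V and the other complexes went in opposite directions in C17.2. The ratio of summed mitochondrial to summed nuclear TPM of complex V was 2.38 and 2.42 in parental and 2.66 and 2.78 in resistant cells of C17.2. For the other complexes this ratio was lower in the resistant cells of C17.2, at 5.26 and 5.29 against 4.81 and 5.01 for complex I, 2.67 and 2.71 against 2.37 and 2.47 for complex III, and 8.86 and 9.13 against 7.99 and 8.22 for complex IV. None of these groups overlapped, and each exact permutation test gave p = 0.333, two-sided (n = 2), the smallest p possible. In C3.2 the ratio for complex V was 1.91 and 1.87 in parental and 1.78 and 1.63 in resistant cells, and for the other complexes the groups overlapped. These ratios do not change with the scaling between libraries, since both parts come from the same library.

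**Figure D5:**
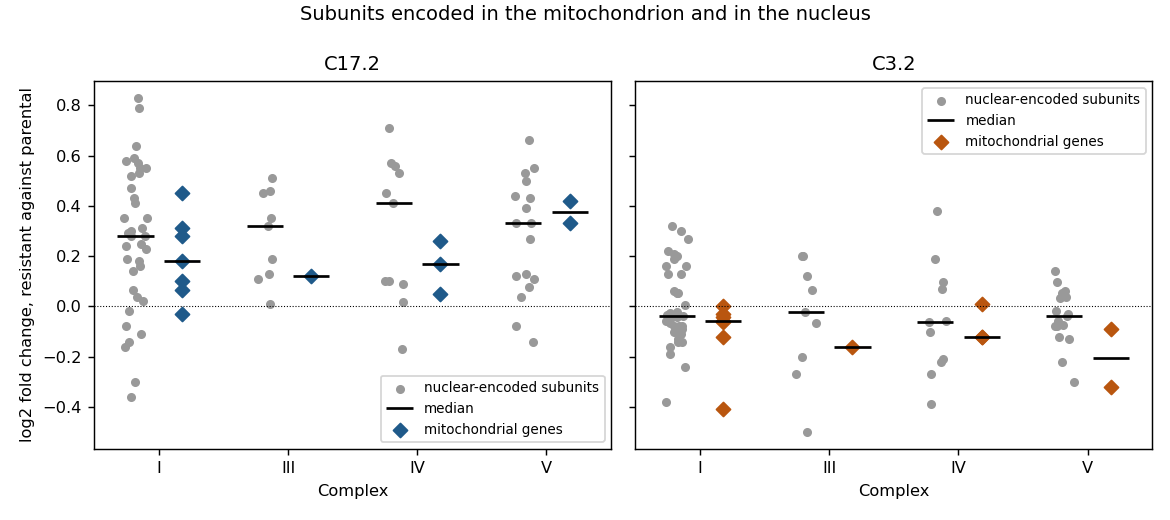
Log2 fold change of resistant against parental cells on the trimmed-mean scale for the nuclear-encoded subunits (gray points, spread sideways for visibility) and the mitochondrial genes (diamonds) of complexes I, III, IV and V, with a black line at each median. In C17.2 the nuclear-encoded subunits center near their overall median of 0.30, while in C3.2 they center near -0.041.

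For the nuclear genes that maintain and transcribe the mitochondrial genome, or process, degrade and translate its RNA, the balance of higher and lower calls depended on the scaling. Of 150 tested on the trimmed-mean scale, 17 rose and 17 fell in C17.2 (median log2 fold change 0.018), and 5 rose and 7 fell in C3.2 (median -0.0020), against the same backgrounds of 13.4%, 13.9%, 4.46% and 6.90%. In C17.2, 50 were higher and 8 lower as deposited (background 24.7% and 8.19%), and 38 and 12 as shares of protein-coding TPM (background 20.1% and 11%). In C3.2, 6 were higher and 2 lower as deposited (background 4.59% and 3.35%), and 8 and 4 as shares of protein-coding TPM (background 10.9% and 4.64%). The 34 calls in C17.2 became fewer without either of its parental libraries or without its resistant replicate 2. The 12 in C3.2 became fewer without either of its parental libraries, its resistant replicate 2 or any 1 library of C17.2. Calls over all genes also became fewer in each of these fits, which leave 1 library in a group. POLRMT, the polymerase, was at 11.8 and 11.7 TPM in parental and 12.9 and 13.2 TPM in resistant cells of C17.2 (log2 fold change -0.0085, 95% confidence interval -0.16 to 0.14). TFAM, which packs the mitochondrial DNA and starts its transcription, was at 30.04 and 27 against 30.8 and 36.3 TPM in C17.2 (log2 fold change 0.068, adjusted p = 0.716). In C3.2 TFAM was at 34.6 and 33.3 TPM in parental and 33.6 and 25.2 TPM in resistant cells, again lowest in replicate 2 (log2 fold change -0.28, adjusted p = 0.183). TFB2M, the initiation factor, did not pass in C17.2 (-0.040, adjusted p = 0.751) or in C3.2 (0.17, adjusted p = 0.213). TEFM, the elongation factor, rose in C3.2, from 5.98 and 5.28 TPM to 8.44 and 9.02 TPM (log2 fold change 0.50, SE 0.12, adjusted p = 0.0451), and was at 0.15 in C17.2 (adjusted p = 0.409). The call of TEFM was lost without either parental library of either clone or either resistant library of C3.2 (adjusted p of 0.0644 to 0.200), without a filter (0.106), without an intensity trend (0.0606) and with C3.2 alone (0.0861).

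Among the genes for mitochondrial RNA processing, modification and decay, 5 of 31 rose and 3 fell in C17.2, and 0 rose and 3 fell in C3.2. For these and the other groups below, shares of all genes on the trimmed-mean scale are 13.4% higher and 13.9% lower in C17.2. In C3.2 they are 4.46% and 6.90%. For the counts as deposited, the shares of all genes are 24.7% and 8.19% in C17.2 and 4.59% and 3.35% in C3.2. As deposited, 11 were higher and 2 lower in C17.2. TRMT10C and HSD17B10 are both subunits of the mitochondrial RNase P, which cuts the 5′ ends of tRNAs out of the polycistronic RNA. HSD17B10 was at 22.9 and 22.8 TPM in parental and 37.2 and 34.4 TPM in resistant cells of C17.2 and rose by 0.47 (SE 0.083, adjusted p = 0.00835). TRMT10C was at 11.7 and 11.5 TPM against 15.95 and 20.4 TPM and rose by 0.44 (SE 0.11, adjusted p = 0.0318). The call of HSD17B10 was lost without parental replicate 1 of C17.2 (adjusted p = 0.0627). That of TRMT10C was lost without any 1 of the 4 parental libraries or resistant replicate 2 of C17.2 (0.0630 to 0.148), without a filter (0.0637) and with C17.2 alone (0.0515). MTO1, a tRNA modification enzyme, fell in both clones, from 31.4 and 32.4 to 20.8 and 19.5 TPM in C17.2 (log2 fold change -0.79, adjusted p = 0.000784) and from 21.1 and 23.6 to 17.5 and 17.6 TPM in C3.2 (log2 fold change -0.39, adjusted p = 0.0234). NSUN4, which acts on the mitochondrial ribosome, fell in C3.2 from 10.2 and 10.6 to 6.14 and 6.06 TPM (log2 fold change -0.75, SE 0.059, adjusted p = 0.00151) and had a value of -0.12 in C17.2 (adjusted p = 0.182). Of 17 genes for mitochondrial DNA maintenance, 2 rose and 2 fell in C17.2 (4 higher and 1 lower as deposited) and 1 rose in C3.2. TK2, the mitochondrial thymidine kinase, fell in C17.2 from 7.92 and 8.55 to 4.29 and 5.37 TPM (log2 fold change -0.80, SE 0.099, adjusted p = 0.00221) and was at 0.18 in C3.2 (adjusted p = 0.289). Of 78 mitochondrial ribosomal protein genes, 10 rose and 9 fell in C17.2 and 3 rose and 3 fell in C3.2. As deposited, 32 of them were higher and 4 lower in C17.2, and 3 and 0 in C3.2. MRPL58 rose in C3.2 from 7.96 and 8.51 to 15.0 and 11.7 TPM (log2 fold change 0.57, SE 0.095, adjusted p = 0.0167), and MRPS21 fell from 12.1 and 11.7 to 10.0 and 8.21 TPM (log2 fold change -0.42, SE 0.078, adjusted p = 0.0231). Of 15 translation factors, 0 rose and 2 fell in C17.2 and 0 rose and 1 fell in C3.2, and of 10 transcription genes 1 fell in C17.2 while TEFM rose in C3.2. As deposited in C17.2, 1 translation factor was higher and 1 lower, and 2 transcription genes were higher and 0 lower. The calls in C3.2 were lost with that clone alone for MTO1 (adjusted p = 0.0662), MRPL58 (0.0778) and MRPS21 (0.0937), and without either of its parental libraries for the same genes (0.0834 to 0.134). MTO1 was also lost without either resistant library of C3.2 (0.0665 and 0.0630) and without a filter (0.0523). MRPS21 was also lost in the TPM as deposited (0.0765), without resistant replicate 2 of C3.2 (0.0693), and without either parental library (0.0570 and 0.0579) or resistant replicate 2 (0.0509) of C17.2.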

How the data were processed

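Total RNA of 8 libraries was depleted of rRNA and sequenced. The authors trimmed the reads with Trim Galore 0.6.3, used STAR 2.7.9a for alignment to hg38 and RSEM 1.3.1 for quantification, and the deposited values are TPM for each gene, unscaled between libraries. The labels give single-end and the study's methods paired-end reads, and the strand setting is not given in the sources used here. TPM keep no depth, so no counting error can be given.

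Genes were tested if 1 or more libraries reached a TPM of 1. Library factors were the trimmed mean of the log2 ratios to the mean library, without the outer 30% of ratios and 5% of means on each side. The log2 of scaled TPM plus a pseudocount of 1, which understates changes of low genes, was fitted in limma 3.58.1 (R 4.3.3) as 1 model of the 4 groups, with an intensity trend and Benjamini-Hochberg adjustment over all genes tested, two-sided, at a threshold of 0.05. Voom, which the study used, requires counts. The model was tested on simulated data. Groups came from the clone labels. Single values per library were compared by exact permutation tests. The members and lists were chosen with earlier results of these data known. All 15 mitochondrial genes tested were named. From the 2 nuclear lists the text names POLRMT, TFAM, TFB2M and TEFM, and for each clone up to 2 genes with the greatest rise and up to 2 with the greatest fall past the threshold and without overlap. Positions and sequences were read from GRCh38 with Gencode release 44. Python 3.11.15, pandas 2.3.3, numpy 2.4.6 and matplotlib 3.10.9 were used. Scalings, pseudocount, filters, model and libraries were varied one at a time.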

Additional observations from a re-analysis of the deposited data

Results flagged for a closer look

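The change from parental to resistant cells differed between C17.2 and C3.2 for 1 mitochondrial gene and 6 of the nuclear genes named, by the test of the difference itself in limma with Benjamini-Hochberg adjustment (C17.2 minus C3.2, on the log2 scale), beside 9.90% of all genes. The nuclear genes had been picked for a large change in 1 clone, which raises the number among them that differ, so nothing is read from that count. MT-ATP8 had a difference of 0.51 (adjusted p = 0.0163). NDUFA6 had a difference of 0.93 (adjusted p = 0.00479), since it rose by 0.55 in C17.2 and had -0.38 in C3.2, each past the threshold. NDUFB2 had a difference of 0.62 (adjusted p = 0.0307) and NDUFC1 of 0.57 (adjusted p = 0.0415), with log2 fold changes of 0.22 and 0.21 in C3.2. NSUN4 had a difference of 0.63 (adjusted p = 0.00874). The difference was -0.98 for TK2 (adjusted p = 0.0105) and -0.67 for MRPL58 (adjusted p = 0.0302). Groups of 2 libraries are too small for a test of single outlying libraries. The difference of NSUN4 and NDUFA6 stayed past the threshold in each fit that left out 1 library, whereas that of TK2 was lost without parental replicate 2 of C17.2 (adjusted p = 0.0514) or either parental library of C3.2 (0.0570 and 0.0516). Those of MRPL58 and NDUFB2 were lost without any 1 library other than the resistant ones of C3.2 (0.0799 to 0.117 and 0.0906 to 0.114), and that of NDUFC1 without any 1 library other than resistant replicate 1 of C3.2 (0.0724 to 0.133). That of MT-ATP8 was lost without any 1 of the 4 parental libraries (0.0670 to 0.0831). Under other processing, the difference of MRPL58 was lost as deposited (0.0698) and without a filter (0.0703), that of NDUFB2 without a filter (0.0631) and without an intensity trend (0.0523), that of NDUFC1 as deposited (0.0584), without a filter (0.0774) and without an intensity trend (0.0593), and that of MT-ATP8 without a filter (0.0799) and under quantile normalization (0.431).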

How the results depend on the processing

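TPM keep no depth and groups hold 2 libraries, which limits every comparison. No paired analysis was possible because the labels give no replicate numbers that parental and resistant libraries share. In C17.2, 2 of the 15 mitochondrial genes were called, beside 4261 of 15614 over all genes. As deposited 6 were called, beside 5128, over protein-coding genes 5, beside 4856, and over nuclear protein-coding genes 5, beside 5091. Under quantile normalization 4 were called, beside 4238, and without a filter on low values 1, beside 3782 of 30771. With the clone alone 8 were called, beside 3900 of 15253. The number also varied with 1 library left out, which leaves 1 library in a group. In C3.2, 0 were called, beside 1773 of 15614 over all genes, and 1 (MT-ND4L) under quantile normalization, beside 1550. The number also varied with 1 library left out. For the difference between the clones, 1 was called, beside 1546 of 15614 over all genes. Under quantile normalization 0 were called, beside 1449, and without a filter 0, beside 1126 of 30771. With 1 library left out the number varied, and was largest without resistant replicate 1 of C3.2. The ratio of the mitochondrial share in C17.2, 1.22 over protein-coding TPM, was 1.29 over all TPM and 1.24 over nuclear protein-coding TPM, and 1.21 to 1.23 with 1 library left out. In the nuclear list of mitochondrial gene expression, 34 were called in C17.2 (17 higher, 17 lower), 58 as deposited (50 higher, 8 lower) and 52 over nuclear protein-coding genes (42 higher, 10 lower), and 14 to 45 with 1 library left out. In C3.2, 12 were called, 5 without a filter, beside 1167 of 30771 over all genes, and 1 with the clone alone, beside 386 of 14519. That number varied with 1 library left out. Among nuclear-encoded subunits, 40 were called in C17.2 (22 to 46 with 1 library left out). In C3.2, 1 was called, 0 as deposited and with the clone alone, 8 over protein-coding (7 higher, 1 lower) and 10 over nuclear protein-coding genes (9 higher, 1 lower), 4 under quantile normalization (3 higher, 1 lower), 2 with a pseudocount of 0.1, 3 with a TPM of 1 in 2 libraries, and 0 to 13 with 1 library left out. Taking the composition over 12 mRNAs without MT-ND6 left every gene's groups above, below or overlapping as before, and turned the log2 ratio of MT-ATP8 in C3.2 from 0.00082 to -0.0052. Adding the nuclear copies was chosen after seeing the data and changed no count. The cause of these differences was not tested.

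Log2 fold changes near 0 turned direction. MT-ND1 in C17.2 (-0.031) was 0.13 as deposited, 0.054 over protein-coding genes, 0.072 over nuclear protein-coding genes and 0.14 under quantile normalization. In C3.2, in the same order of settings, MT-ND1 was 0.022, 0.060, 0.061 and 0.19, MT-ND2 0.0038, 0.041, 0.042 and 0.11, MT-ND3 0.035, 0.073, 0.074 and 0.14, and MT-ND4 0.0093, 0.047, 0.048 and 0.080. MT-ATP8 in C3.2 was 0.015 and 0.016 over protein-coding and nuclear protein-coding genes and 0.13 under quantile normalization, which also gave 0.0095 for MT-ATP6, 0.15 for MT-CO2, 0.070 for MT-ND5 and 0.018 for MT-CYB. MT-ND4L in C3.2 was -0.0066 without a filter. POLRMT in C17.2 was 0.14 as deposited, 0.070 over protein-coding genes, 0.086 over nuclear protein-coding genes, 0.0086 under quantile normalization and 0.0067 without a filter, TFB2M was 0.099, 0.033, 0.048 and 0.0037 in the first 4 of these, and NSUN4 was 0.027 as deposited. The difference between the clones for MT-ND1 was -0.0060 over protein-coding genes and -0.049 under quantile normalization. With 1 library left out, the values in C3.2 ran from -0.25 to 0.16 for MT-ND1, -0.24 to 0.12 for MT-ND2, -0.15 to 0.089 for MT-ND3, -0.24 to 0.12 for MT-ND4, -0.085 to 0.085 for MT-ND4L, -0.37 to 0.12 for MT-ND5, -0.017 to 0.036 for MT-CO1, -0.29 to 0.053 for MT-CO2, -0.040 to 0.28 for MT-RNR1 and -0.056 to 0.35 for MT-RNR2. In C17.2 they ran from -0.041 to 0.023 for POLRMT, -0.024 to 0.16 for TFAM and -0.11 to 0.035 for TFB2M, and the difference between the clones from -0.20 to 0.22 for MT-ND1.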
